A study of Xenopus laevis with 8 samples.

Results

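Chromatin remodeler and modifier genes were followed across 4 groups of Xenopus laevis animal caps, blastula ectoderm that becomes epidermis in culture unless it is induced to another fate. Members were the genes whose single symbol in the platform annotation belongs to 1 of the families listed below, each represented by its brightest probe set. The rule picked genes by name only, but the brightest probe set of each was picked by its mean log2 signal over all 8 arrays. It found 179 probe sets and 114 symbols among the 11303 single-symbol genes of the array. Of these, 104 members passed the filter on dim signals, as did 8814 genes in all, and only these were tested.

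The 4 groups were uninjected caps, caps injected with Chordin mRNA, caps injected with Chordin and Wnt3a mRNAs, and caps injected with both mRNAs and Lrig3MO, a morpholino against lrig3. Each group had 2 arrays, every injection was made at the animal pole at the 2-cell stage, and caps were cut at stage 9 and collected at stage 15. The labels name no control mRNA and no control morpholino, so injection itself was not matched between the groups. No strain or genotype is given, and the embryos are not described as carrying any other alteration. Chordin binds and blocks bone morphogenetic proteins outside the cell, and its message turns caps from an epidermal towards an anterior neural fate. Wnt3a is a secreted Wnt ligand which, together with Chordin, induces neural crest in caps. Lrig3 spans the cell membrane and carries leucine-rich repeats on its outer side, and the study addressed genes that depend on it in caps given both messages.

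DNA in the nucleus is wrapped around histones, and access to it is set by several kinds of protein. Remodelers use ATP to move or eject nucleosomes. Writers place acetyl or methyl groups on histones or on DNA, erasers remove them, and readers such as bromodomain and chromodomain proteins bind the marked sites. In human cells and in Xenopus embryos, the remodeler Chd7 is known to act with the PBAF form of the SWI/SNF complex, which contains Arid2 and Brd7, in the formation of neural crest.

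Signals are the deposited intensities, which carry a common trimmed mean on every array. Wherever a pair of signals is given, replicate 1 comes before replicate 2. Between 68.6% and 76.0% of the probe sets on each array lay above background, taken as the brightest negative control. The summed signal of 77 cell cycle and replication probe sets was 93189 to 98059 in uninjected caps, 201923 to 202867 with chordin, 129043 to 148482 with wnt3a added and 168100 to 172787 with the morpholino added. The 24 anterior neural probe sets summed to 3114 to 3310 in uninjected caps and to 82802 to 104749 with chordin. They summed to 16823 to 24883 with wnt3a added and to 52742 to 56047 with the morpholino added. The 27 epidermal probe sets summed to 256114 to 296121 in uninjected caps and to 146971 to 150517 with chordin. They summed to 110913 to 198196 with wnt3a added and to 138591 to 172438 with the morpholino added. The 22 neural crest probe sets summed to 19654 to 23187 with chordin, to 89722 to 102816 with wnt3a added and to 46283 to 55026 with the morpholino added. Multiciliated cell probe sets, 19 in number, summed to 63584 to 64484 in uninjected caps and stayed at or below 34178 in every injected group. The targeted message, lrig3.S, had signals of 95.6 and 172 in uninjected caps and 3191 and 2158 with chordin. It had 741 and 756 with wnt3a added and 4787 and 3002 with the morpholino added. A morpholino acts on translation or splicing, so this does not check the label. Chrd.1.S had signals of 468 and 771 with chordin, 100 and 291 with wnt3a added and 156 and 159 with the morpholino added. Wnt3a.S had 10956 and 18771 with wnt3a added and 27548 and 25480 with the morpholino added. The part of these differences in the comparisons was not tested.

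The morpholino group's replicate 1 array stood apart in its mesoderm and muscle genes. Their summed signal was 9708 on that array and 523 on replicate 2. On it the mesodermal regulator tbxt.S reached 2152, against 144 on replicate 2, and cardiac actin, actc1.L, reached 1709 against 32.4. In caps with chordin and wnt3a the same list summed to 487 and 1058. The part of these cells in the morpholino comparison was not tested, and its results are also given without that array. In these bulk samples, fewer cells of a type and less RNA per cell cannot be told apart.

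Chordin mRNA raised 38 of the 104 tested chromatin genes and lowered 1, ruvbl2.L, relative to uninjected caps (limma, adjusted p below 0.05). Over all 22000 probe sets tested, 29.3% were called in this comparison, 17.6% as higher and 11.7% as lower. By brightest probe set, 1688 of 8814 genes were higher and 1136 lower. The members' median log2 change was 0.43, against 0.07 over all genes, and 76.0% of members had a positive change, against 53.9% of genes. Both chordin arrays lay above both uninjected arrays in 65 of the 104 members and below them in 10. The share over all genes is not given, so arrays described below as not overlapping are no further support for a call. Members were brighter than genes in general, with a median log2 signal of 10.1 against 8.92, and their median standard error of the log2 change was 0.19 against 0.29 over all probe sets.

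The count of raised members depended on having both arrays of each group. Leaving out replicate 1 of uninjected caps gave 21, and leaving out replicate 2 gave 23. Leaving out replicate 1 of the chordin caps gave 16, and replicate 2 gave 25. In these 4 fits the share of all probe sets called higher was 7.36% to 9.68%. Under all 15 alternatives, 12 of the 39 calls remained: chd7.L, smarca4.S, smarca5.S, arid2.L, brd7.L, cbx1.S, cbx3.L, rbbp4.S, prmt5.S, kat7.L, sirt6.S and kdm1a.S. With the replicate number as a block the counts were 48 higher and 7 lower, and 40.6% of all probe sets were called. The block added the rises of chd4.L, mbd3.S, rbbp5.S, arid2.S, prmt1.L, brd1.L, hdac2.S, kdm2b.L, setd4.L and setdb1.L. It added the falls of ino80b.S, ruvbl1.S, ruvbl2.S, smarca2.L, sirt2.S and arid3a.S. Where these genes are described below as not called or not passing, the fit without the block is meant.

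**Figure D1:**
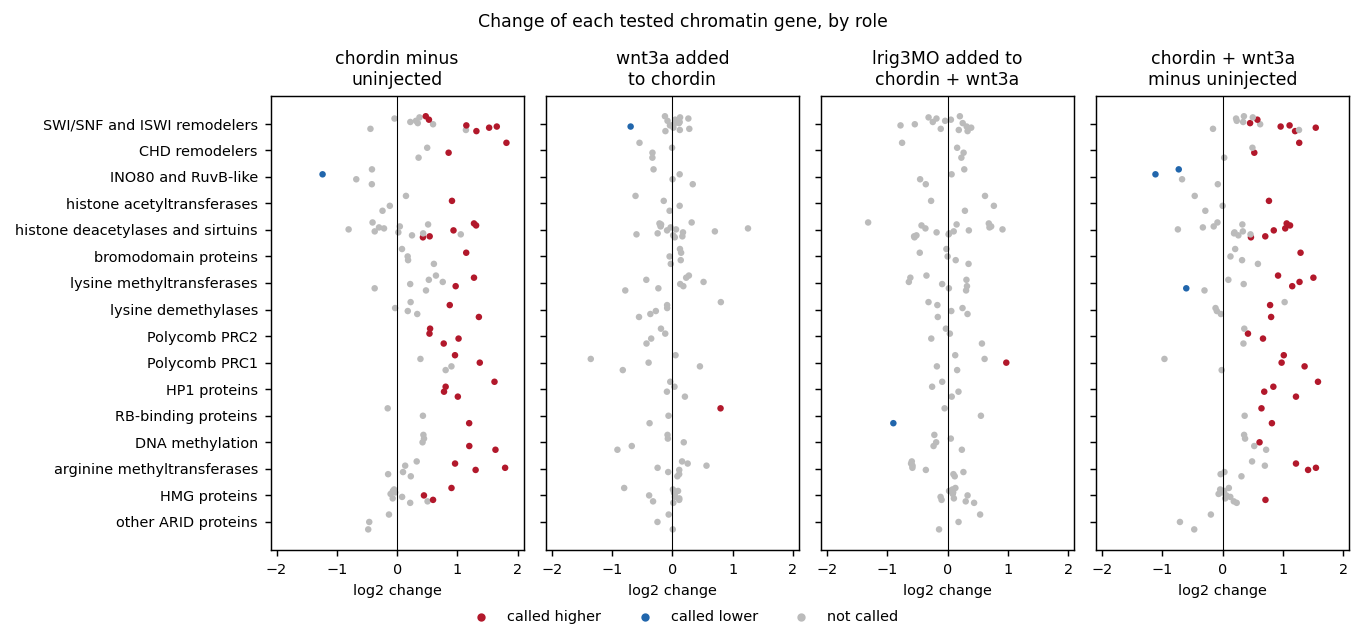
Log2 change of each of the 104 tested chromatin genes (horizontal axis, log2 of signal plus pseudocount) in 4 comparisons, with genes grouped by role on the vertical axis. Each point is 1 gene's fitted difference between groups of 2 arrays, and colour marks the call. Most coloured points lie to the right of 0 in the first and last panels, and the middle panels hold 1 called rise and 1 called fall each.

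A difference among the 4 groups was called for 45 members, or 43.3%, by the moderated F test. This was close to the 44.1% of genes called by brightest probe set and the 41.2% of all probe sets. Of these 45, 35 had their lowest mean in uninjected caps, and 16 had their highest mean with the morpholino, 14 with chordin and 11 with chordin and wnt3a. The same split over all called genes is not given, so it cannot be called particular to the members. When uninjected replicate 1 or replicate 2 was left out, the F test called fewer members, and fewer probe sets over the whole array.

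**Figure D2:**
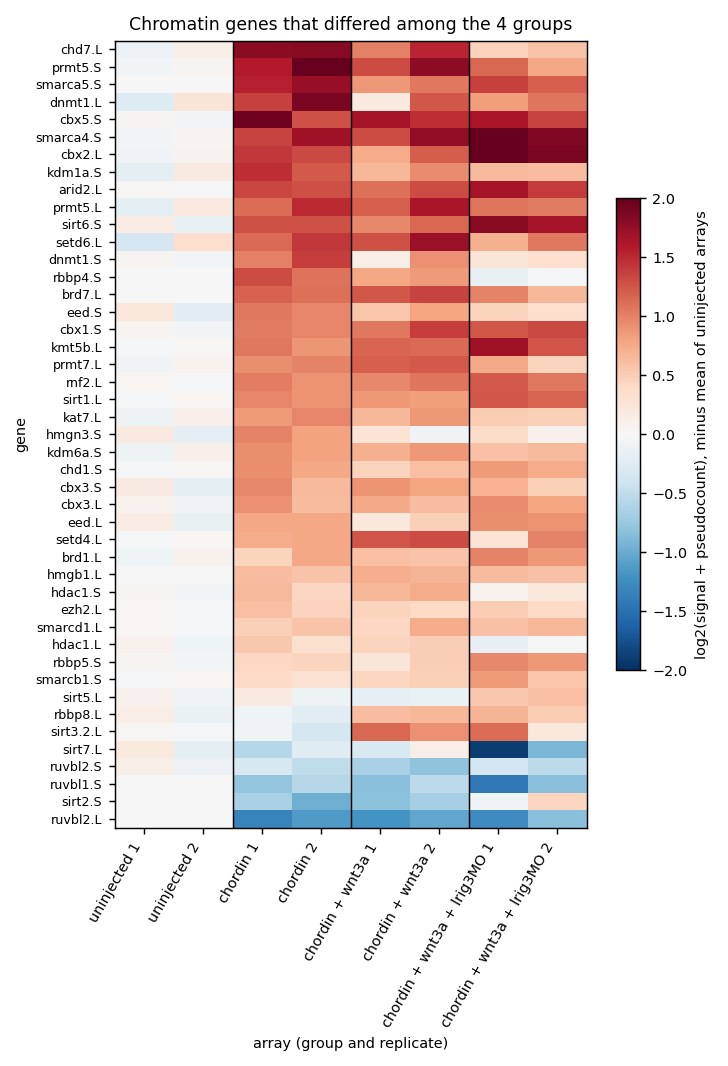
Log2 signal of the 45 chromatin genes called by the F test (rows, ordered by the chordin change) on each of the 8 arrays (columns), relative to the mean of the uninjected arrays. Red is higher and blue is lower. The row for ruvbl2.L is blue on all 6 injected arrays, and the rows for rbbp4.S and hdac1.L return close to 0 in the morpholino columns.

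In the class headed SWI/SNF and ISWI remodelers, which was filled by gene name, 6 of 14 tested genes were called higher with chordin and none lower. The 6 include smarcad1.S, whose call is no support for a rise, as given below. Smarca5.S, the ISWI-type ATPase, had signals of 1077 and 1084 in uninjected caps, 3193 and 3637 with chordin, 1972 and 2252 with wnt3a added and 2789 and 2472 with the morpholino added. All 6 injected arrays lay above both uninjected arrays, and the chordin arrays were the highest. Its chordin change was 1.65 ± 0.14 (log2, SE, adjusted p = 0.000879), the smallest adjusted p of any member in that comparison. Smarca4.S, the Brg1 ATPase of SWI/SNF complexes, had signals of 126 and 136, 342 and 437, 331 and 462, and 545 and 487 in the same order of groups. It rose by 1.52 ± 0.24 with chordin (adjusted p = 0.00563), and no injected array overlapped the uninjected ones.

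Arid2.L, a PBAF subunit, had signals of 1761 and 1713 in uninjected caps and 4389 and 4268 with chordin, a change of 1.31 ± 0.14 (adjusted p = 0.00152). It measured 3732 and 4278 with wnt3a added and 5525 and 4581 with the morpholino added, so every injected array was above the uninjected pair. The much dimmer arid2.S had signals of 69.3 and 29.4 in uninjected caps. Its change of 1.14 ± 0.43 did not pass (adjusted p = 0.0856) and passed with the block (adjusted p = 0.0178). It needed brighter injected arrays to pass the filter on dim signals, so neither its change nor its call is support for a rise. Brd7.L, a bromodomain protein that is also among the PBAF subunits, had signals of 2004 and 1979 in uninjected caps and 4531 and 4293 with chordin. It measured 4698 and 5065 with wnt3a added and 3985 and 3149 with the morpholino added. It rose by 1.15 ± 0.14 with chordin (adjusted p = 0.00262), and its groups with and without injection did not overlap. It was the only 1 of 5 bromodomain genes called, the others having changes between 0.08 and 0.61.

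The other calls in the SWI/SNF and ISWI class were smaller or rested on more arrays. Smarcd1.L rose by 0.53 ± 0.14 and smarce1.L by 0.47 ± 0.14, both core or accessory subunits, and both calls were lost without any 1 of the 4 arrays compared. Smarcad1.S, a dim gene with signals of 43.1 and 29.3 in uninjected caps and 107 and 67.6 with chordin, lost its call under 10 alternatives. It needed brighter injected arrays to pass the filter on dim signals, so its call is no support for a rise. The core subunits smarcc1.L and smarcb1.S and the alternative ATPase smarca2.L were not called, smarca2.L with a change of -0.44 ± 0.23.

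Chd7.L had the largest change of all members with chordin. Its signals were 1110 and 1298 in uninjected caps, 4226 and 4233 with chordin, 2426 and 3460 with wnt3a added and 1658 and 1776 with the morpholino added. In the brightest probe set, given here, the chordin arrays were highest and the morpholino arrays lay between uninjected caps and caps with both messages. The chordin change was 1.81 ± 0.19 (adjusted p = 0.00153), and it kept its call under every alternative. Of its 3 dimmer probe sets, 2 were called higher with chordin, by 1.37 and 1.09, and the dimmest had a change of 0.40 that was not called. With the morpholino added to both messages these 3 had changes of 0.51, 0.37 and 0.61, none called. The lower morpholino signal was thus seen in the brightest probe set only. Chd1.S rose by 0.85 ± 0.16 with chordin (adjusted p = 0.0102), a call lost without uninjected replicate 1 or chordin replicate 1. Chd1.L and chd4.L, the NuRD ATPase, were not called, with changes of 0.36 and 0.50.

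**Figure D3:**
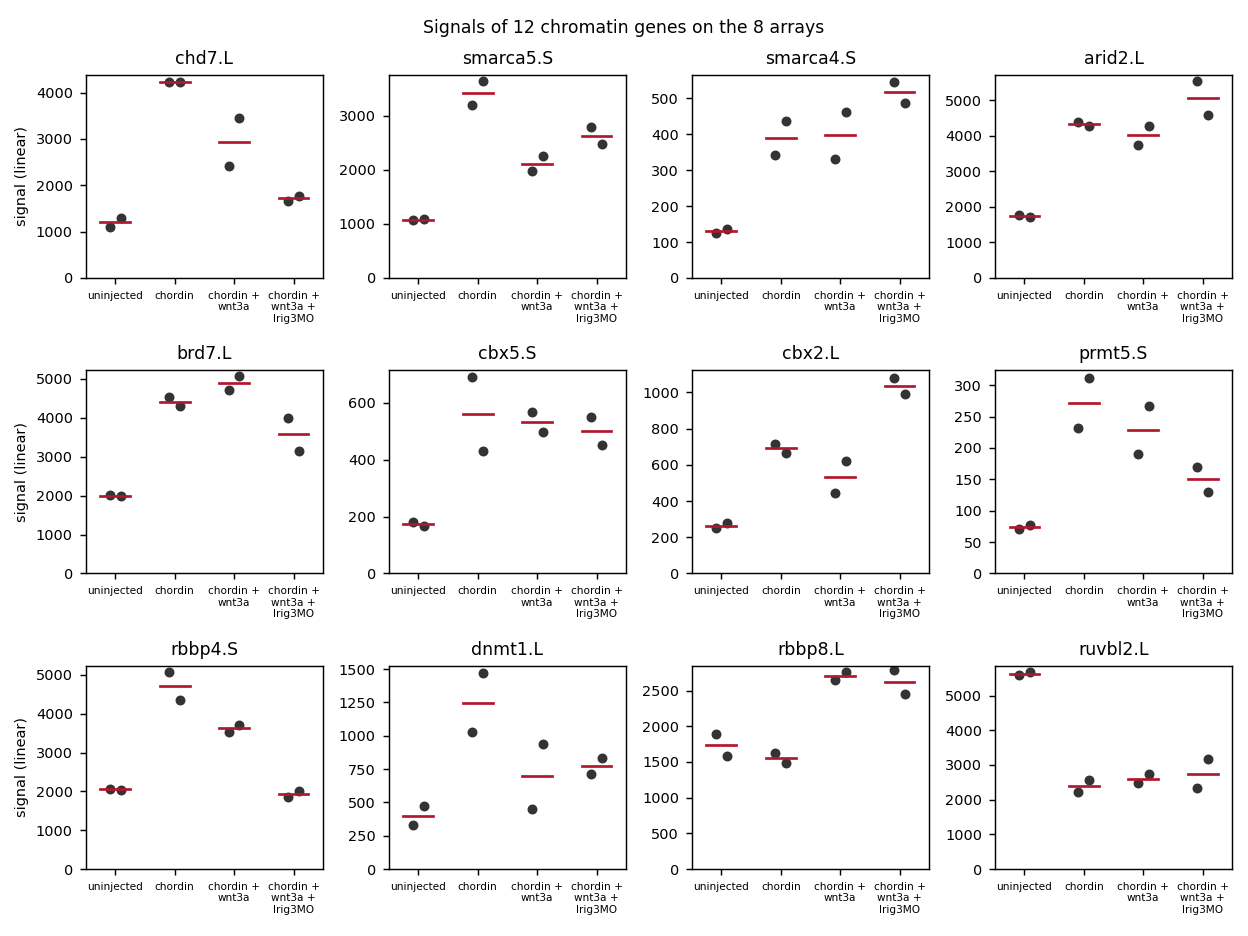
Deposited signal (vertical axis, linear, starting at 0) of 12 chromatin genes in the 4 groups. Each point is 1 array and each red line is the mean of the group's 2 arrays. In the chd7.L and rbbp4.S probe sets shown, the chordin arrays are highest and the morpholino arrays fall towards the uninjected level. The other chd7.L probe sets, not shown, do not fall with the morpholino. In arid2.L, smarca4.S and cbx2.L the morpholino arrays are highest.

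All 4 tested INO80 and RuvB-like genes had negative changes with chordin, of which 1 was called. Ruvbl2.L, which with Ruvbl1 forms the ATPase ring of INO80-type and TIP60 complexes, had signals of 5582 and 5692 in uninjected caps, 2232 and 2557 with chordin, 2466 and 2738 with wnt3a added and 2343 and 3163 with the morpholino added. Every injected array was below both uninjected ones. It fell by 1.24 on the log2 scale (SE 0.17, adjusted p = 0.0037). A second probe set assigned to ruvbl2.L was also called lower, with a change of -0.79. Its name shares a root with that of the ruvbl2.S probe set, and its uninjected signals were 3298 and 3115. It may read both copies, so it is no separate support. The copy ruvbl2.S had signals of 3414 and 2922 in uninjected caps and 2525 and 2209 with chordin, a change of -0.42 ± 0.15 that did not pass (adjusted p = 0.0718). Ruvbl1.S, at -0.68, and ino80b.S, at -0.42, did not pass either, and all 4 genes were called lower with the block. Scaling the arrays to their added poly-A RNA controls, which moved the median of all probe sets in this comparison from 0.09 to 0.76, removed every call of a fall among members.

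Among acetyltransferases, kat7.L, which acetylates histone H3 and is also called Hbo1, had signals of 5430 and 6279 in uninjected caps, 10492 and 11472 with chordin, 9294 and 10613 with wnt3a added and 8320 and 8120 with the morpholino added. The injected arrays were all higher than the uninjected ones, and the chordin change was 0.91 ± 0.12 (adjusted p = 0.0032). The copy kat7.S was near background, between 32.2 and 56.2, with a change of 0.15. Both copies of the co-activator crebbp had negative changes, -0.24 and -0.12, which did not pass.

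Of 16 histone deacetylases and sirtuins, 5 rose with chordin: hdac1.L, hdac1.S, sirt1.L, sirt5.S and sirt6.S. Sirt6.S, a chromatin-bound NAD-dependent deacylase, had signals of 401 and 324 in uninjected caps, 879 and 880 with chordin, 710 and 808 with wnt3a added and 1285 and 1159 with the morpholino added. Its change was 1.27 ± 0.18 (adjusted p = 0.00376), with the morpholino arrays the highest and the uninjected arrays the lowest. The copy sirt6.L measured 224 and 210 in uninjected caps and 352 and 276 with chordin, a change of 0.51 that was not called. Sirt1.L rose by 0.93 ± 0.16 and sirt5.S, a mitochondrial enzyme, by 1.31 ± 0.34, and both calls were lost without chordin replicate 1. That of sirt5.S was also lost without chordin replicate 2 or uninjected replicate 1, and that of sirt1.L with the mean over its probe sets. The sirt1.L mean took in an untested probe set with signals no higher than 44.

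Hdac1, the deacetylase of the NuRD, Sin3 and CoREST complexes, changed less. Hdac1.S had signals of 3316 and 3054 in uninjected caps and 4966 and 4309 with chordin, a change of 0.54 ± 0.13 (adjusted p = 0.0205), lost without either uninjected array, without chordin replicate 1 or with the mean over its probe sets. Hdac1.L passed narrowly, at 0.43 ± 0.13 (adjusted p = 0.0476), and lost its call without any 1 of the 8 arrays. Sirt2.S, a largely cytoplasmic deacetylase, had signals of 280 and 281 in uninjected caps and 178 and 140 with chordin, a change of -0.81 ± 0.25 that narrowly missed the threshold (adjusted p = 0.0516).

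Both lysine methyltransferases and demethylases had 2 called rises each. Kmt5b.L, which places the higher methylation states on histone H4, had signals of 392 and 418 in uninjected caps, 847 and 752 with chordin, 917 and 895 with wnt3a added and 1319 and 975 with the morpholino added. Its change was 0.97 ± 0.19 (adjusted p = 0.0117), lost without uninjected replicate 1 or chordin replicate 1. The copy kmt5b.S measured 515 and 639 in uninjected caps and 637 and 698 with chordin, which overlap. Setd6.L, a lysine methyltransferase with non-histone targets, rose by 1.27 ± 0.27 (adjusted p = 0.0151), from 843 and 1346 to 2355 and 2837, a call lost without uninjected replicate 1 or either chordin array.

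Kdm1a.S, the Lsd1 demethylase of the CoREST complex, had signals of 1361 and 1750 in uninjected caps, 4303 and 3634 with chordin, 2441 and 2973 with wnt3a added and 2435 and 2379 with the morpholino added. The chordin arrays were highest and the uninjected arrays lowest, and the chordin change was 1.35 ± 0.18 (adjusted p = 0.00319). Its dimmer probe set gave 1.29. Kdm6a.S, also known as Utx, which removes the methyl mark placed by Polycomb, rose by 0.87 ± 0.18 (adjusted p = 0.013). The call of kdm6a.S was lost without uninjected replicate 1 or either chordin array, while that of kdm1a.S held under every alternative. The 4 other demethylases had changes between -0.03 and 0.33.

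All 4 tested genes of Polycomb repressive complex 2, which include both copies of eed, were called higher with chordin. The complex methylates histone H3 at silenced genes. Ezh2.L, the catalytic subunit, had signals of 6409 and 6035 in uninjected caps and 9459 and 8602 with chordin, a change of 0.54 ± 0.10 (adjusted p = 0.0104). Eed.S, the subunit that binds the mark, measured 1078 and 779 in uninjected caps and 1910 and 1812 with chordin, a change of 1.02 ± 0.19 (adjusted p = 0.00995). Eed.L rose by 0.77 ± 0.17 from 964 and 792 to 1490 and 1501. Suz12, the scaffold subunit, rose by 0.55 ± 0.14, from 1718 and 1728 to 2462 and 2577. The chordin and uninjected arrays did not overlap for any of the 4, as for most tested members. The count rested on single arrays: it was 0 when chordin replicate 1 was left out and 2 when chordin replicate 2 was left out. It was 3 when uninjected replicate 1 was left out and 1 when uninjected replicate 2 was left out.

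In Polycomb repressive complex 1, 2 of 5 tested genes rose with chordin. Cbx2.L, a chromodomain reader of the Polycomb mark, had signals of 250 and 279 in uninjected caps, 714 and 668 with chordin, 443 and 620 with wnt3a added and 1082 and 990 with the morpholino added. Its change was 1.37 ± 0.21 (adjusted p = 0.0051), and all injected arrays were above the uninjected ones. Rnf2.L, the ubiquitin ligase of the complex, rose by 0.96 ± 0.14 (adjusted p = 0.00402), from 1161 and 1095 to 2300 and 2099. Both calls held without any single array and were lost when all probe sets of the gene were averaged. The other cbx2.L probe set in that mean had signals no higher than 36.7 and was not tested. The other rnf2.L probe set had signals no higher than 156. Bmi1.L and bmi1.S, its partner, had changes of 0.80 and 0.90 that did not pass, bmi1.S with signals no higher than 106 on any array.

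All 4 HP1 genes, which include both copies of cbx3, were called higher with chordin. HP1 proteins are the chromodomain readers of the heterochromatin methyl mark. Cbx5.S, or HP1 alpha, had signals of 181 and 168 in uninjected caps, 689 and 429 with chordin, 567 and 497 with wnt3a added and 549 and 453 with the morpholino added. Its change was 1.61 ± 0.26 (adjusted p = 0.0063) in the probe set given here. The other tested cbx5.S probe set was brighter in uninjected caps, at 301 and 256, and measured 481 and 406 with chordin. It rose by only 0.66 (adjusted p = 0.0441). The call of cbx5.S was lost with the mean over its probe sets, which leaves 3 of the 4 HP1 genes called. That mean took in an untested probe set with signals no higher than 28.5. Cbx1.S, or HP1 beta, rose by 1.01 ± 0.16 (adjusted p = 0.00578), from 726 and 677 to 1448 and 1380. The brighter cbx3 copies, HP1 gamma, rose by 0.78 for cbx3.L and 0.80 for cbx3.S, from 4561 and 4160 to 8215 and 6793 and from 5023 and 3893 to 8587 and 6949. In each of the 4 genes the 6 injected arrays lay above both uninjected arrays. Without chordin replicate 1 or uninjected replicate 2 the count was 3, cbx3.S being lost.

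Rbbp4.S, a histone chaperone shared by Polycomb repressive complex 2, NuRD and the chromatin assembly factor, had signals of 2061 and 2048 in uninjected caps, 5079 and 4360 with chordin, 3521 and 3720 with wnt3a added and 1858 and 2022 with the morpholino added. It was high with chordin and with both messages, and near the uninjected level with the morpholino. The chordin change was 1.19 ± 0.13 (adjusted p = 0.00164). Rbbp5.S, a subunit of the complexes that methylate histone H3 at active promoters, and rbbp8.L, a DNA repair protein, were not called with chordin.

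Dnmt1, which copies DNA methylation to the new strand at replication, rose in both copies. Dnmt1.L had signals of 330 and 469 in uninjected caps, 1028 and 1469 with chordin, 452 and 938 with wnt3a added and 710 and 831 with the morpholino added. Dnmt1.S had signals of 888 and 828, 1733 and 2242, 942 and 1617, and 1012 and 1089 in the same order. Both copies were highest on the chordin arrays, and for each copy the replicates with wnt3a added lay well apart. The chordin changes were 1.63 ± 0.37 for dnmt1.L (adjusted p = 0.0195) and 1.20 ± 0.27 for dnmt1.S (adjusted p = 0.0174), and both calls were lost when any 1 of the 4 arrays was left out. The methyl-DNA binding proteins mbd1.L, mbd1.S and mbd3.S had changes between 0.42 and 0.45, none of which passed. A dimmer mbd3.S probe set was called higher, by 0.75 (adjusted p = 0.0133). The cell cycle and replication list, of which 48 of 75 tested probe sets rose with chordin, moved in the same direction as dnmt1, and its part in the members' changes was not tested.

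Among 8 arginine methyltransferases, 3 rose with chordin. Prmt5.S, which makes symmetric dimethylarginine, had signals of 70.7 and 77.2 in uninjected caps, 231 and 312 with chordin, 190 and 267 with wnt3a added and 170 and 130 with the morpholino added. Its brighter copy prmt5.L measured 301 and 399, 757 and 982, 800 and 1088, and 734 and 718. Both copies were lowest in uninjected caps without overlap, with chordin changes of 1.79 ± 0.28 (adjusted p = 0.00575) and 1.30 ± 0.24 (adjusted p = 0.00919). The call of prmt5.L was lost without uninjected replicate 1 or chordin replicate 2. Prmt7.L rose by 0.96 ± 0.21 (adjusted p = 0.0153), a call lost without any 1 of the 4 arrays compared. Prmt1, the main asymmetric enzyme, was far brighter, between 16934 and 26215 in both copies, and was not called, with changes of 0.23 and -0.15.

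HMG proteins, small non-histone DNA and nucleosome binders, included the brightest members. The brightest probe sets of hmgb2.L, hmgb2.S, hmgb3.S, hmgn1.S, hmgn2.L and hmgn2.S had signals between 18287 and 31235 on every array, and none was called in any comparison. A dimmer hmgb2.S probe set was called higher with chordin, by 0.58 (adjusted p = 0.0195). Its dimmest had a change of 0.56 that was not called (adjusted p = 0.0663). Of 11 HMG genes 3 rose with chordin. Hmgb1.L went from 1750 and 1727 to 2665 and 2592, a change of 0.59 ± 0.11 (adjusted p = 0.0106). Hmgn3.S went from 2145 and 1660 to 3756 and 3313, a change of 0.90 ± 0.20 (adjusted p = 0.0165), and measured 2282 and 1797 with wnt3a added. Hmgb3.L had the third and smallest rise, 0.44 ± 0.13. The HMG count was 0 without chordin replicate 1 or uninjected replicate 2. None of the 3 remaining ARID genes was called, arid3a.S having a change of -0.48 in its brightest probe set (adjusted p = 0.115) and called falls of -0.93 to -1.09 in its 3 dimmer ones.

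Adding wnt3a to chordin changed few chromatin genes. With 5.82% of all probe sets called, 3.08% higher and 2.74% lower, 1 of 104 members was higher and 1 lower, and the members' median change was -0.02. Rbbp8.L, also called CtIP, which trims broken DNA ends for repair, had signals of 1624 and 1482 with chordin, 2653 and 2756 with wnt3a added, 2785 and 2450 with the morpholino added, and 1895 and 1580 in uninjected caps. The wnt3a groups lay above both others without overlap, and the change was 0.80 ± 0.15 (adjusted p = 0.0262), lost without any 1 of the 4 arrays compared. Smarca5.S was lower with wnt3a, by the signals given above, with a change of -0.69 ± 0.14 (adjusted p = 0.0376), and lost its call without any 1 array except morpholino replicate 2.

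With the replicate block 2 members were higher and 4 lower on adding wnt3a, and 9.23% of all probe sets were called. The members added by the block were sirt3.2.L, higher at 1.25, and dnmt1.L, hmgn3.S and cbx8.L, lower at -0.91, -0.80 and -1.35. Sirt3.2.L was also called when either morpholino array was left out. Cbx8.L, a Polycomb reader, had signals of 98.8 and 113 with chordin and 28.8 and 50.2 with wnt3a added, and its lowest array was close to background. Unadjusted, 3 members were higher and 13 lower at p below 0.05, or 15.4% of members against 17.6% of all probe sets. Of the 75 cell cycle and replication probe sets 17 fell and none rose in this comparison.

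Adding the lrig3 morpholino to chordin and wnt3a likewise gave 1 called rise and 1 called fall among members, with 4.9% of all probe sets called, 2.73% higher and 2.16% lower. Rbbp4.S fell by 0.90 on the log2 scale (SE 0.13, adjusted p = 0.0238), its morpholino arrays at 1858 and 2022 lying below the uninjected ones at 2061 and 2048. Cbx2.L rose by 0.97 ± 0.21 (adjusted p = 0.0486), both morpholino arrays lying above every other array. Neither call held without the morpholino array with high mesoderm genes, a fit in which no probe set of the whole array was called and the remaining morpholino array was assumed to vary like the other groups. The rise of cbx2.L was also lost without any other single array, and the fall of rbbp4.S without either uninjected array or either array of caps with both messages. The members' median change was 0.06, against 0.01 over all genes.

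Scaling to the poly-A controls gave a different split for the morpholino, with 0 members higher and 35 lower and 24.7% of all probe sets called lower. These controls ran high on both morpholino arrays and on uninjected replicate 1. That scaling moved the median of all probe sets from 0.03 to -0.90 and the members' median to -0.91, close to that of all probe sets.

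With the replicate block 4 members were higher and 6 lower with the morpholino, and 14.9% of all probe sets were called. The added falls were chd7.L, hdac1.L, hdac1.S, sirt7.L and setd6.L. Both hdac1 copies fell to near the uninjected level, hdac1.L from 5094 and 5298 to 3363 and 3750 and hdac1.S from 5059 and 5329 to 3348 and 3725, with changes of -0.55 and -0.56 (adjusted p = 0.0317 and 0.0284 with the block, 0.0619 and 0.0563 without). Sirt7.L, a nucleolar sirtuin, went from 537 and 731 to 174 and 353. The added rises were rbbp5.S, sirt5.L and sirt6.S. Sirt5.L measured 711 and 722 before and 1164 and 1208 with the morpholino.

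Probe sets of a gene did not always move together in the morpholino comparison. The brightest chd7.L probe set had a change of -0.75 (adjusted p = 0.0691), while its 3 others had changes of 0.37, 0.51 and 0.61, none of them called. Of the 2 dimmer hmgb2.S probe sets, 1 went from 822 and 694 with both messages to 6810 and 5428 with the morpholino, a change of 3.00 (adjusted p = 0.00355). The other rose by 0.99 (adjusted p = 0.0224), and the brightest was not called, at -0.12. The dimmest of the hmgn1.S probe sets went from at most 17.1 with both messages, below background, to 130 and 123, at least 4.65-fold higher, while its bright ones were not called. It passed the filter on dim signals through the morpholino arrays only, so it had to differ, and no test of it is given. Both morpholino arrays were high in each of these dim probe sets. Over the 39 members with several probe sets, no gene had probe sets called in opposite directions in any of the 4 comparisons. Some of these members had only 1 tested probe set, few had a called fall, and few had any call on adding wnt3a or the morpholino. Opposite calls were thus mostly not possible, and their absence does not show that probe sets agree.

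Caps with both messages were also compared directly with uninjected caps, a comparison that shares its arrays with those above. Here 38 members were higher and 3 lower, with 33.7% of all probe sets called, 19.0% higher and 14.7% lower. By brightest probe set, 1855 of 8814 genes were higher and 1406 lower. Fewer rises were called when either uninjected array or replicate 2 of caps with both messages was left out. The share of all probe sets called higher fell in these fits too. The block gave 48 higher and 7 lower with 44.5% of all probe sets called. The largest rises were those of cbx5.S, at 1.58 ± 0.26, smarca4.S, at 1.54 ± 0.24, and prmt5.S, at 1.54 ± 0.28. The call of cbx5.S was lost here too with the mean over its probe sets. Its other tested probe set was not called here, at 0.59 (adjusted p = 0.0573). Falls were called for ruvbl2.L, at -1.12 ± 0.17, ruvbl2.S, at -0.73 ± 0.15, and kmt5a.S, at -0.60 ± 0.16. Scaling to the poly-A controls removed all 3 calls and turned ruvbl2.S to 0.004 and kmt5a.S to 0.129, while the change of the median probe set went from 0.11 to 0.82.

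Several members were called here and not with chordin alone. The wnt3a comparison, which tests that difference, called only rbbp8.L among them. Setd4.L, a lysine methyltransferase, had signals of 140 and 149 in uninjected caps, 246 and 250 with chordin, 351 and 363 with both messages and 176 and 292 with the morpholino. It was highest with both messages, and its change from uninjected caps was 1.27 ± 0.27 (adjusted p = 0.0129), lost without either uninjected array or replicate 2 of caps with both messages, as was that of bmi1.S. Bmi1.S measured 30.0 and 32.1 in uninjected caps and 72.4 and 106 with both messages, a change of 1.36 ± 0.37. It needed brighter injected arrays to pass the filter on dim signals, so its call is no support for a rise. Bmi1.L measured 124 and 117 against 90.3 and 157, which overlap. Kmt5a.S, the histone H4 monomethyltransferase, measured 2488 and 2256 in uninjected caps and 1469 and 1648 with both messages, while kmt5a.L measured 226 and 210 against 188 and 164. Both kmt5a copies were lower with both messages without overlap, and only kmt5a.S was called (adjusted p = 0.0289), a call lost without any 1 of the 4 arrays compared, without chordin replicate 1, or with the mean over its probe sets.

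Xenopus laevis is allotetraploid, and .L and .S mark gene copies on its long and short subgenomes, whose probes may cross-hybridise. Of 23 genes present in both copies, 22 had both tested. With chordin, both copies were called higher for 5 pairs, cbx3, dnmt1, eed, hdac1 and prmt5, a single copy was called for 8 and neither for 9. In no pair were the copies called in opposite directions, but ruvbl2.L was the only member called lower, so no other pair could have been. Changes had the same sign in 17 pairs. Since 76.0% of tested members had a positive change, many pairs would share a sign without any link between copies. The changes of the copies correlated at r = 0.62 over the 22 pairs, which share the same arrays. The widest gap was in sirt5, where sirt5.S rose by 1.31 and sirt5.L had a change of 0.04, with signals of 843 and 751 in uninjected caps and 906 and 743 with chordin.

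**Figure D4:**
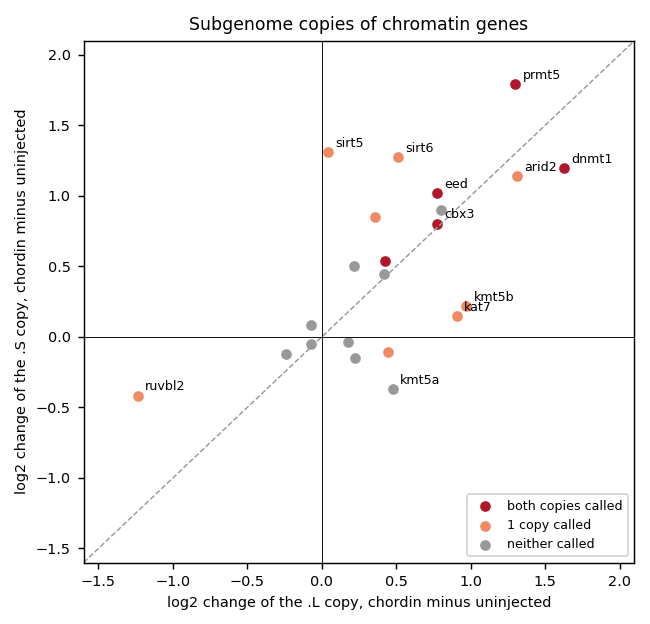
Log2 change with chordin of the .L copy (horizontal axis) and the .S copy (vertical axis) for 22 chromatin genes with both copies tested. Each point is 1 gene, colour gives how many of its copies were called, and the dashed line marks equal change. Points for prmt5, dnmt1 and arid2 lie far to the upper right, ruvbl2 lies to the lower left, and sirt5 and sirt6 lie above the line. The arid2.S copy needed brighter injected arrays to pass the filter on dim signals, so its position is no support for a rise.

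Genes of the chromatin machinery outside the named families were taken from a further list of histone chaperones, reader subunits and cofactors. The list was chosen with earlier results of these data known, so it is no independent support. With chordin 29 of 69 tested probe sets rose and none was called lower, beside 17.6% higher and 11.7% lower among all probe sets. The list's median change was 0.58, against 0.09 over all probe sets. Nasp.L, a histone chaperone, had signals of 715 and 884 in uninjected caps, 3568 and 3430 with chordin, 2075 and 2170 with wnt3a added and 1580 and 1251 with the morpholino added, a chordin change of 2.13 (adjusted p = 0.000736). Hells.L, a remodeler linked to DNA methylation, went from 776 and 646 to 2950 and 2829, a change of 2.02 (adjusted p = 0.000825). Both were highest on the chordin arrays. The histone chaperone asf1b.L rose with chordin by 1.54 and was the only gene of the list called on adding wnt3a, with a change of -1.25 (adjusted p = 0.0119).

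The morpholino gave 2 rises and 5 falls among the 69 probe sets of that list, beside 4.9% called among all probe sets. None of these calls held without morpholino replicate 1, where no probe set at all was called. Uhrf1.S, the partner that brings Dnmt1 to replicated DNA, had signals of 4951 and 5410 with both messages and 2265 and 3015 with the morpholino, a change of -0.98 (adjusted p = 0.027). Phf10.S, a PBAF subunit, went from 3140 and 3025 to 1693 and 1582, a change of -0.91 (adjusted p = 0.0283), and actl6a.S, an actin-related SWI/SNF subunit, from 9991 and 9720 to 6814 and 6702. The other falls were nasp.S and h3-3b.S. Baz1b.S, a partner of Smarca5, rose from 606 and 914 to 1643 and 1692, a change of 1.16 (adjusted p = 0.0378), and suv39h2.L, a heterochromatin methyltransferase, from 665 and 694 to 1246 and 1427. In each of these 5 genes with values, the morpholino arrays and the arrays with both messages did not overlap. The genes were chosen because they were called, so this is no further support.

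The 10 members that did not pass the filter were mbd2.S, mbd5.L, ino80d.L, cbx6.L, cbx8.S, smarca1.L, hdac9.S, kmt5c.L, setd1b.S and setdb2.S. Their signals did not exceed 61.5 on any array, and no direction is given for them. All 104 tested members were above background on all 8 arrays.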

How the data were processed

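RNA from 8 animal cap samples was hybridised to Affymetrix arrays, 2 per group; the sample labels give the groups and replicate numbers. The deposited values are linear signal intensities, 1 per probe set and array. The submitters' processing notes name MAS5; the sources used here give no version. Each array's 2% trimmed mean rounds to 500, so no further normalization was applied. The 96 control probe sets were left out. A pseudocount of 5.22, equal to the 10th percentile over the whole table, was added before taking log2, so folds of dim genes are understated. Probe sets above their array's 40th percentile on at least 2 arrays were kept, 22000 of 32539. Limma 3.58.1 in R 4.3.3 fitted group means over all 8 arrays (lmFit, eBayes with trend and robust, 4 residual degrees of freedom), and calls were made at a Benjamini-Hochberg adjusted p below 0.05 over all kept probe sets. The fit was tested on simulated data. Background was the highest of 23 negative control probe sets, 19.5 to 30.8 by array.

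An exact permutation test of 2 against 2 arrays cannot give a p below 0.333 and was not used. Whether replicates came from separate batches of embryos is not stated, so the p-values reflect the spread of these samples alone, which may be technical, and the small number of arrays limits precision. What a shared replicate number marks is not stated either. Between groups, the differences of replicate 1 from replicate 2 had correlations of 0.172 to 0.505 in each of 6 group pairs. The gapdh 3' to 5' ratio lay between 1.26 and 1.41 for replicate 1 and between 1.61 and 1.76 for replicate 2. On this basis, and with counts under the block already known, equal numbers were taken to pair the arrays. The calls given first are nevertheless from the fit without the replicate block, which was the main design; counts with the block stand beside them.

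Names come from the platform annotation, updated by Entrez number through RefSeq (Xenopus_laevis_v10.1), which 15384 of 15495 single-symbol probe sets matched; 279 probe sets with several symbols were not named, and suz12 had no match, so its copy is not given. No coordinates or sequences are given. The members, role classes and gene lists were chosen with earlier results of these data known. In each comparison the up to 8 called members with the largest rise and the up to 8 with the largest fall were named, with the largest F in each role class and the other copy of each; further genes were named after their values were seen. The alternatives were pseudocounts of 1 and 32, no filter, quantile normalization, scaling to 36 poly-A control probe sets and the replicate block. Further alternatives were the mean over a symbol's probe sets, which took in those below the filter, and leaving out each array.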

Additional observations from a re-analysis of the deposited data

How the results depend on the processing

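Counts of called members moved most with the poly-A control scaling, the replicate block and the arrays left out. For rises, leaving out 1 array gave 16 to 36 with chordin against uninjected caps, 17 to 35 with chordin and wnt3a against uninjected caps, 0 to 2 on adding wnt3a and 0 on adding the morpholino; the F test gave 19 to 42. For falls the ranges were 1 to 3, 1 to 4, 0 to 1 and 0 to 2. Scaling to the poly-A controls gave 0 rises and 0 falls on adding wnt3a, 0 rises and 35 falls on adding the morpholino, and 0 falls in both comparisons with uninjected caps. It turned the changes of kmt5a.S and ruvbl2.S between caps with both messages and uninjected caps to 0.129 and 0.004, neither called. The replicate block gave 2 rises and 4 falls on adding wnt3a, 4 rises and 6 falls on adding the morpholino, and 7 falls in each comparison with uninjected caps. For the morpholino, a pseudocount of 1 or no filter gave 0 rises. The mean over probe sets gave 2, hmgb2.S and hmgn1.S. The hmgn1.S mean includes the dim probe set that passed the filter through the morpholino arrays only, so its call is no support for a rise. For chordin the mean over probe sets gave 2 falls. Quantile normalization and a pseudocount of 32 moved no count by over 1.5 times. The cause of these moves was not tested, except that fewer arrays lower the residual degrees of freedom. Among 2 arrays per group, changes in genes near background are the least certain.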
